A study of Homo sapiens with 6 samples.

Results

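Voltage-gated sodium and calcium channel genes were taken as the protein-coding genes whose symbols in the deposited tables are SCN with a number and the letter A or B, or begin with CACNA, CACNB, CACNG or CACN2. They numbered 39 among 32575 genes listed. Of these, 20 encode pore-forming subunits (10 sodium alpha genes and 10 calcium alpha1 genes), and 19 encode auxiliary subunits (4 sodium beta, 4 calcium alpha2delta, 4 calcium beta and 7 calcium gamma genes). They were followed in SH-SY5Y cells, an established human neuroblastoma line with neuroblast-like properties. All cells had been transduced with a lentivirus carrying a short hairpin RNA and had been selected with puromycin, then grown for 2 to 3 weeks. The hairpin was a control, or targeted CSA (the product of ERCC8) or CSB (the product of ERCC6), and each of these 3 groups had 2 libraries. Sample labels call the groups WT, CSAmut and CSBmut, while the growth protocol describes hairpins, so the groups are called control, CSA knockdown and CSB knockdown here. Neither the number of hairpins per target nor the origin of a group's 2 libraries (1 transduction or several) was given in the sources used here, so the spread behind each p-value, that between these libraries, may be technical. The question was how depletion of either protein, both known for their part in transcription-coupled DNA repair, changes gene expression in these cells.

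The alpha subunit of a sodium channel forms the pore that opens on depolarization and carries the upstroke of the action potential, and the beta subunits are single-pass membrane proteins that tune its gating and act in adhesion. Calcium channels have a pore-forming alpha1 subunit of the L-type, P/Q-type, N-type, R-type or T-type, and the calcium that they admit drives transmitter release, firing patterns and gene regulation. The alpha2delta subunits, of which those of CACNA2D1 and CACNA2D2 bind gabapentin, and the cytoplasmic beta subunits bring high-voltage-activated alpha1 subunits to the membrane. Gamma subunits are a mixed family: some belong to the muscle calcium channel, whereas several others, called TARPs, are auxiliary subunits of AMPA-type glutamate receptors.

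Promoter sequences from the RefSeq table (build GRCh38.p14, 250 bases before to 50 after the annotated start) were matched for 25 of the 39 genes. Of the promoters shown here, those of CACNA2D1 and CACNA2D2 are included because the calcium alpha2delta pair had near-equal changes in each comparison. Those of SCN2A and SCN9A are included because these sodium channel genes, both on chromosome 2 though not next to each other, moved differently in the CSA knockdown. Each is given 5′ to 3′ on the gene's strand, with capitals for matches, on either strand, to GGGCGG (the GC box), CAGCTG or CAGATG (E-box forms) or TATAAA (the TATA box).
CACNA2D1, chr7:82443907-82444206, minus strand: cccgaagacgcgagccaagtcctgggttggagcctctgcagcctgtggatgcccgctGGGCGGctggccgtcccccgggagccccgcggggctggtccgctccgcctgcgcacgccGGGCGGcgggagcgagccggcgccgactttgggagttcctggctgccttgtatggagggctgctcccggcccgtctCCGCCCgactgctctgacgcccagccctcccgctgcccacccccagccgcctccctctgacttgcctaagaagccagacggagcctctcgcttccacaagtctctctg
CACNA2D2, chr3:50504195-50504494, minus strand: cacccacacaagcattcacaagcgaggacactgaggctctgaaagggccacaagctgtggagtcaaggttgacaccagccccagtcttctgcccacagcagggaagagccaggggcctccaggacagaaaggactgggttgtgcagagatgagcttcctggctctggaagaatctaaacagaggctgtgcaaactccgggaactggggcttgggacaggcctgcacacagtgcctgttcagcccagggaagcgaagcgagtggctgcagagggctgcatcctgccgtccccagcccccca
SCN2A, chr2:165239164-165239463, plus strand: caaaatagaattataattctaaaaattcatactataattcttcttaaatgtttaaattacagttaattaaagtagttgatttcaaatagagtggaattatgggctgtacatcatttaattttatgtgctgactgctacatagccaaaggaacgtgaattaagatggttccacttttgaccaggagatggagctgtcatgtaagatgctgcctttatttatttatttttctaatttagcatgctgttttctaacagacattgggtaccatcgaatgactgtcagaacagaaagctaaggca
SCN9A, chr2:166375895-166376194, minus strand: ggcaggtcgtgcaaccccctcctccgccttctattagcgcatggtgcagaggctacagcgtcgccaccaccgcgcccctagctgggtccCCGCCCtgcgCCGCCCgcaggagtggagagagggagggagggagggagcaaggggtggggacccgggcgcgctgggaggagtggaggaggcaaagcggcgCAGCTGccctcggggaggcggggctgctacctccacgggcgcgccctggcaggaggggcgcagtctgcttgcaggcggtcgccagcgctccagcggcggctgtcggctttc
The CACNA2D1 promoter had a GC content of 72.3% with 29 CpG dinucleotides and 3 GC boxes. That of CACNA2D2 had 60.3% GC, 5 CpG dinucleotides and none of the motifs searched, so the 2 promoters differed in these features. In the SCN2A promoter GC content was 31.7% with 2 CpG dinucleotides and no match, whereas the SCN9A promoter had 73.3% GC, 28 CpG dinucleotides, 2 GC boxes and 1 CAGCTG. Over the 25 promoters the median GC content was 65.7% and the median number of CpG dinucleotides 21, against 58.7% and 14 over 35116 promoters of the table. Some of the 25 lie far from the deposited start of their gene: 117511 bases for CACNA1A, 101383 for SCN11A, 82201 for CACNA1C and 70415 for CACNA1E. Those printed above lie within 158 bases of it. The summary values therefore need not describe the starts used in these cells. The GC box was found in 16 of 25, against 45.0% of all promoters. CAGCTG was found in 4 (17.9% of all), CAGATG in 4 (14.7% of all) and TATAAA in 1 (11.5% of all). The letters TTCAGCACC, a fragment of the site bound by the repressor REST, were in 0 of the 25 and in 0.376% of all promoters.

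Recovered reads per library ranged from 19368272 to 26758162. Values are scaled counts, that is, reads divided by 1 size factor per library, and levels of different genes are compared only after division by exon length in kb. ERCC8 had scaled counts of 219 and 217 in control and 61.8 and 57.2 in the CSA knockdown, and ERCC6 had 615 and 593 in control and 258 and 302 in the CSB knockdown. The 9 noradrenergic neuroblast markers had summed scaled counts of 109028 to 112346 in control, 126749 to 130617 in the CSA knockdown and 98582 to 99051 in the CSB knockdown. Such sums weigh abundant genes most. Of these markers 3 were higher and 3 lower in the CSA knockdown, with a median log2 change of 0.02. In the CSB knockdown 3 were higher and 2 lower, with a median of -0.09. TH, which marks this cell type, was low, with means of 17.1, 4.14 and 10.2. The 9 markers of mesenchymal or substrate-adherent neuroblastoma cells differed between groups, with sums of 18877 to 19007, 7576 to 7936 and 29654 to 30795. At an adjusted p below 0.05 in the limma fit, 0 were higher and 7 lower in the CSA knockdown. In the CSB knockdown 6 were higher and 1 lower. The share called was 77.8% in each knockdown, and 66.7% and 55.6% for the noradrenergic markers in the CSA and CSB knockdown. Over all tested genes it was 18.8% and 23.6%, and 35.7% and 45.0% at a mean of at least 50. Schwann cell markers summed to at most 151 in any library, and muscle markers to 383 to 401 in control, 348 to 357 in the CSA knockdown and 174 to 193 in the CSB knockdown. SOX10 and FOXD3, Schwann cell markers, had no reads in any library, and MYOG, a muscle marker, had a mean of at most 0.477 in a group. The part of these markers in the results below was not tested. In bulk libraries fewer cells of a type and less RNA per cell cannot be told apart.

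Expression of the channel genes ranged widely. Of the 39 genes, 35 had a group mean of 1 or more scaled counts in at least 1 group and were tested. The other 4, CACNA1A, CACNA1H, SCN4A and SCN10A, had at most 1 read in any library. Another 3, CACNA1I, CACNA1S and CACNG6, never had more than 3 reads in a library, so a change in them was not detectable at this depth. CACNA1S was tested through the CSB knockdown alone and CACNG6 through the control alone, while CACNA1F, CACNA1I and CACNA2D3 were tested through 2 groups. The genes are long: their median genomic span was 101.6 kb against 12.98 kb over all tested genes, and their median exon length was 8196 bases against 2728 bases. Exon sequence shared between channel genes was scarce: at most 2.81% of the 50-base stretches of 1 gene (SCN3A) occurred in another (SCN2A).

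**Figure D1:**
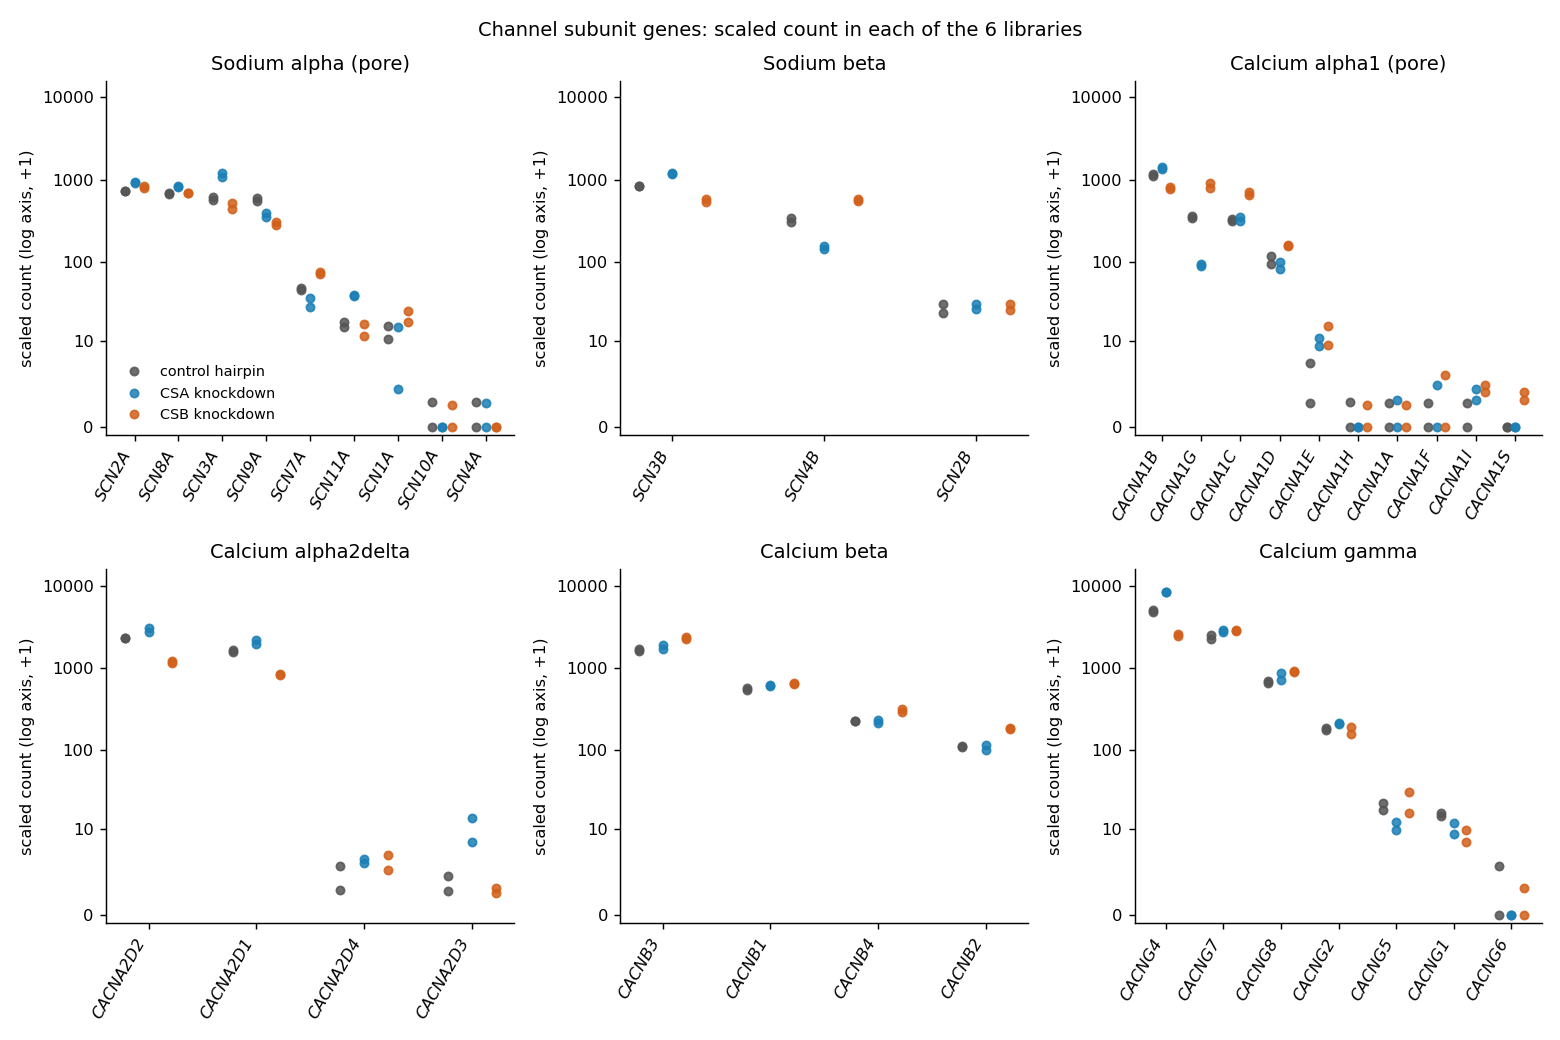
Scaled count (log axis, after adding 1) of the channel genes reported individually in each of the 6 libraries, by subunit class, ordered by the control mean, with 2 points per group. CACNG4 and CACNG7 lie above 1000 in each library, while SCN4A, SCN10A, CACNA1A and CACNA1H lie at the floor.

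In the CSA knockdown, 12 of the 35 tested genes rose and 3 fell, and among the sodium alpha genes SCN2A, SCN3A, SCN8A and SCN11A rose and SCN9A fell. Changes are log2 fold changes of the scaled count + 1 with the SE of the limma fit, and a gene is called where its Benjamini-Hochberg adjusted p is below 0.05. Over all 28388 genes tested, 18.8% passed the same threshold (8.37% up and 10.4% down), against 42.9% of the channel genes. The share was higher among well expressed genes, where 35.7% of the 13397 genes with a mean of 50 or more were called. Of the 21 channel genes at that level 13 were called (61.9%). The median log2 change of the 35 genes was 0.23, against 0.005 over all tested genes. By role, 6 of 16 tested pore-forming genes rose and 2 fell, and 6 of 19 auxiliary genes rose and 1 fell. Without control 1, control 2, CSB 1 or CSB 2, called channel genes numbered 6, 7, 9 and 9 in place of 15, of which 4, 4, 6 and 6 rose.

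In the CSB knockdown, 11 of the 35 genes rose and 7 fell, and the classes split: calcium beta genes rose, CACNA2D1 and CACNA2D2 of the alpha2delta class fell, and of the sodium alpha genes SCN3A and SCN9A were called, both lower. The background was 23.6% of all tested genes (14.8% up and 8.86% down), against 51.4% of the channel genes. At a mean of at least 50, 45.0% of all genes and 17 of 21 channel genes (81.0%) were called. The median log2 change was 0.17 for the channel genes and 0.097 for all genes. Of the pore-forming genes 4 rose and 3 fell, and of the auxiliary genes 7 rose and 4 fell. The majority of rises did not hold in 5 of the 20 alternatives: called channel genes numbered 9 (3 up and 6 down) without control 1, 9 (3 and 6) without control 2, 8 (3 and 5) without CSB 1 and 10 (4 and 6) without CSB 2, in place of 18, and DESeq2 called 6 up and 7 down.

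Set directly against each other, the 2 knockdowns differed in 19 channel genes, with 8 higher and 11 lower in the CSB knockdown (54.3%). Over all tested genes 29.4% differed (18.1% higher and 11.3% lower), and at a mean of at least 50 these shares were 52.6% of all genes and 76.2% (16 of 21) of the channel genes. The median log2 difference was 0.02 for the channel genes and 0.090 for all. Both comparisons with control share the same 2 control libraries, so their values are given side by side for each gene.

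**Figure D2:**
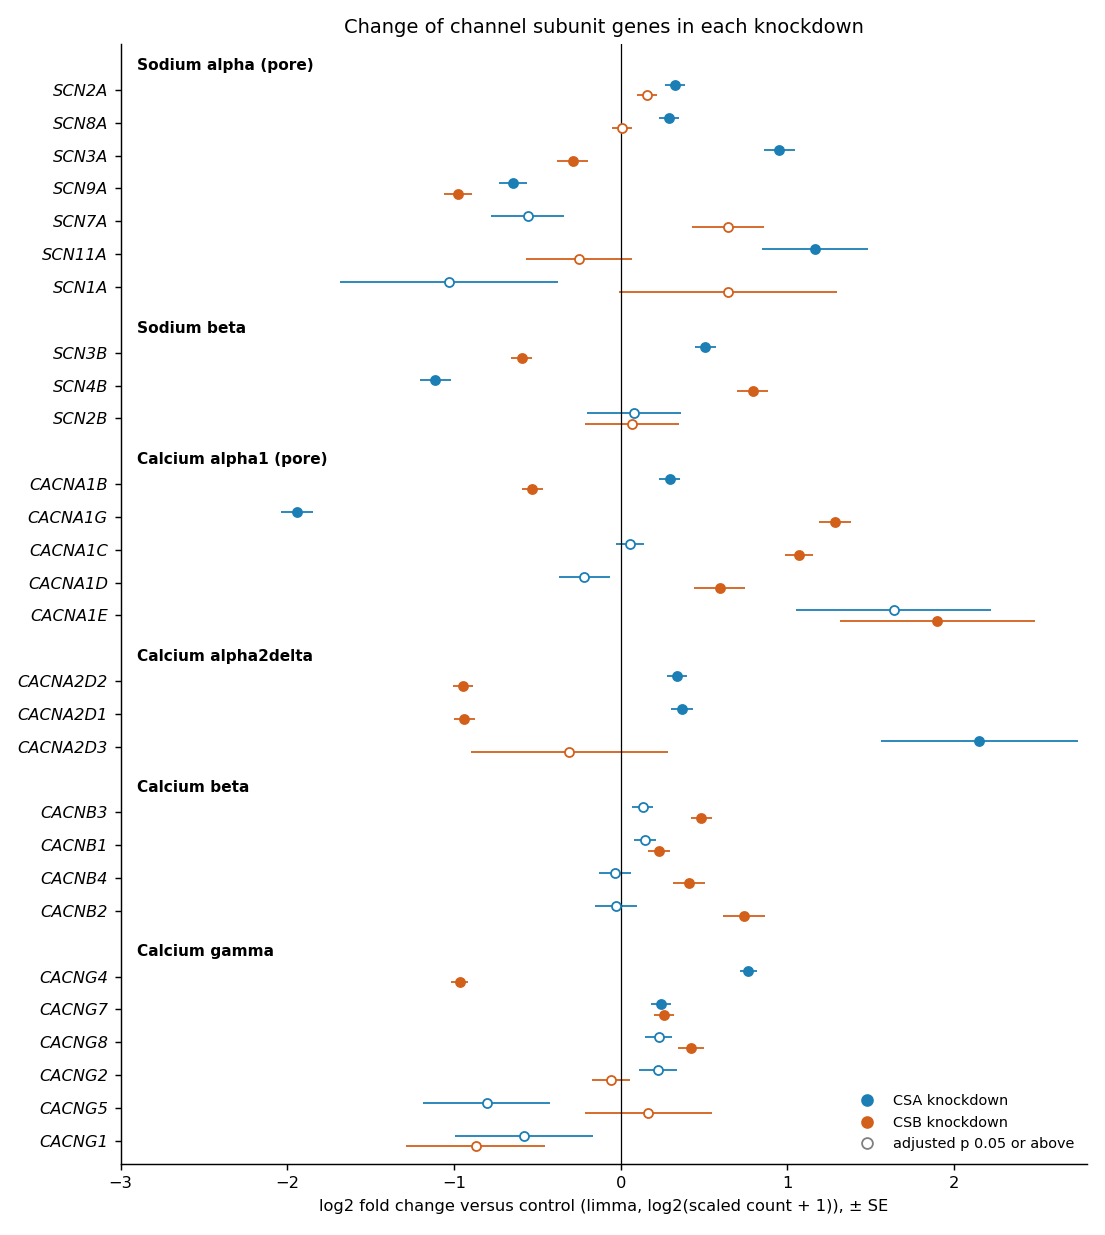
Log2 fold change against control (± SE of the limma fit on log2(scaled count + 1)) for the channel genes reported individually with a group mean of 10 or more in any group, by class. Filled points passed an adjusted p of 0.05. CACNA1G and SCN4B lie far to the left in the CSA knockdown and to the right in the CSB knockdown, whereas CACNG4, CACNA2D1 and CACNA2D2 lie to the right in the first and to the left in the second.

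Among the sodium alpha genes, SCN2A, SCN3A, SCN8A and SCN11A were higher in the CSA knockdown and SCN9A was lower. With CSB depleted 0 of the 8 tested genes were called higher, and SCN3A and SCN9A fell. The share called there, 25.0%, was near the 23.6% of all tested genes (14.8% up and 8.86% down). It was below the 45.0% of genes with a mean of at least 50, and nothing is read from it about the class. SCN3A, an alpha subunit known for high expression in the embryonic nervous system, had scaled counts of 621 and 560.4 with the control hairpin, 1213 and 1075 with the CSA hairpin and 445 and 524 with the CSB hairpin. Both CSA knockdown libraries lay above the other 4, and both CSB knockdown libraries lay below control. Its log2 fold change was 0.95 ± 0.09 (adjusted p = 1.5e-05) in the CSA knockdown, a 1.94-fold ratio of means, and it fell by 0.29 ± 0.09 (adjusted p = 0.0381) in the CSB knockdown.

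Smaller rises were found for SCN2A and SCN8A, alpha genes expressed in central neurons. SCN2A, found in axon initial segments, had scaled counts of 726 and 739.8 with the control hairpin, 932 and 904 with the CSA hairpin and 837 and 801 with the CSB hairpin. The CSA knockdown was highest and control lowest, with no overlap between groups. Its rise in the CSA knockdown was 0.32 ± 0.06 (adjusted p = 0.00229), while the CSB knockdown value of 0.16 ± 0.06 (adjusted p = 0.0810) missed the threshold. SCN8A, the alpha subunit of nodes of Ranvier, had 689 and 676 with the control hairpin, 841 and 827 with the CSA hairpin and 686 and 686 with the CSB hairpin. Control and CSB knockdown overlapped and the CSA knockdown lay above both. It rose by 0.29 ± 0.06 (adjusted p = 0.00498) in the CSA knockdown and was lower in the CSB than in the CSA knockdown by 0.28 (adjusted p = 0.00344). SCN11A, a sodium channel gene of pain-sensing neurons, was near the lower end of detection, with 17.9 and 15.4 with the control hairpin, 39.0 and 38.1 with the CSA hairpin and 16.5 and 11.6 with the CSB hairpin. Its CSA knockdown libraries were above the others, and control and CSB knockdown overlapped. The rise was 1.17 ± 0.32 (adjusted p = 0.0227) from 34 reads in control to 76 in the CSA knockdown.

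SCN9A, another sodium channel gene of peripheral sensory neurons, in which its loss abolishes pain sensation, went the other way. It had 603 and 557 with the control hairpin, 389 and 352 with the CSA hairpin and 306 and 283 with the CSB hairpin. The groups did not overlap, with control highest and the CSB knockdown lowest. It fell by 0.64 ± 0.09 (adjusted p = 1.9e-04) in the CSA knockdown and by 0.97 ± 0.09 (adjusted p = 6.4e-06) in the CSB knockdown, which left 0.508 of the control mean. The CSB knockdown was below the CSA knockdown by 0.33 (adjusted p = 0.0108). SCN7A, which encodes the sodium-sensing channel NaX, had 47.7 and 44.4 with the control hairpin, 27.1 and 35.3 with the CSA hairpin and 74.9 and 70.1 with the CSB hairpin. The CSA knockdown was lowest and the CSB knockdown highest, without overlap, yet only the direct comparison of the knockdowns passed, at 1.20 ± 0.22 (adjusted p = 0.00101), whereas the changes from control were -0.56 (adjusted p = 0.102) and 0.64 (adjusted p = 0.0505). SCN1A ranged from 1.91 to 24.8 over the 6 libraries and passed in no comparison. The calls in the CSA knockdown for SCN2A and SCN8A were lost without control 1 or without control 2 (adjusted p up to 0.0808 and 0.0819) and that for SCN9A without control 1 (0.0668). The SCN11A rise ended with any 1 of the 6 libraries left out (up to 0.166) and with DESeq2 (0.0791). The fall of SCN3A in the CSB knockdown ended with any 1 library left out (up to 0.423) and with no filter (0.0637). Between the knockdowns, the SCN11A difference ended without either CSA library or CSB 2 (0.0713), that of SCN7A without either CSB library (0.0655) and that of SCN9A with any 1 of the 6 left out (0.180).

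SCN2A, SCN3A, SCN8A and SCN9A were close to equal in control cells when divided by exon length. Shares within a class are of the summed per-kb level of the genes reported individually. SCN3A held 25.8% and 24.5%, SCN2A 23.8% and 25.5%, SCN9A 23.7% and 23% and SCN8A 22.5% and 23.2% in the 2 control libraries. SCN2A and SCN3A overlapped in this order, as did SCN8A and SCN9A, so these neighbours did not differ beyond their spread. With CSA depleted SCN3A held 39.4% and 37.5%, above SCN2A (23.9% and 24.9%), and SCN9A held 12% and 11.6%. With CSB depleted SCN2A held 32% and 30.3% and SCN9A 14% and 12.8%. SCN7A held no more than 4.34% in any library.

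The sodium beta genes SCN3B and SCN4B moved in opposite directions within each knockdown. SCN3B, a non-covalently bound beta subunit found in developing neurons, had scaled counts of 846 and 841 with the control hairpin, 1209.6 and 1191 with the CSA hairpin and 539 and 578 with the CSB hairpin. The CSA knockdown was highest and the CSB knockdown lowest, and the groups did not overlap. It rose by 0.51 ± 0.06 (adjusted p = 1.0e-04) in the CSA knockdown and fell by 0.59 ± 0.06 (adjusted p = 2.5e-05) in the CSB knockdown. SCN4B, whose product is disulfide-linked to the alpha subunit and takes part in resurgent sodium current, had 344 and 309 with the control hairpin, 145 and 155 with the CSA hairpin and 585 and 546 with the CSB hairpin. Here the order was the reverse, with the CSB knockdown highest. SCN4B fell by 1.11 ± 0.09 (adjusted p = 4.3e-06) in the CSA knockdown, to 0.461 of the control mean, and rose by 0.79 ± 0.09 (adjusted p = 5.4e-05) in the CSB knockdown. Between the knockdowns it was 3.76-fold higher with CSB depleted. Per kb, SCN3B made up 58% and 59.8% of the class in control, 80.9% and 79.4% after CSA depletion and 34.6% and 37.5% after CSB depletion, so that SCN4B, with 62.8% and 59.4%, exceeded SCN3B in the CSB knockdown only. The calls for SCN3B and SCN4B held in all 20 alternatives in each comparison. SCN2B lay between 22.9 and 29.9 in every library and passed in no comparison.

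**Figure D3:**
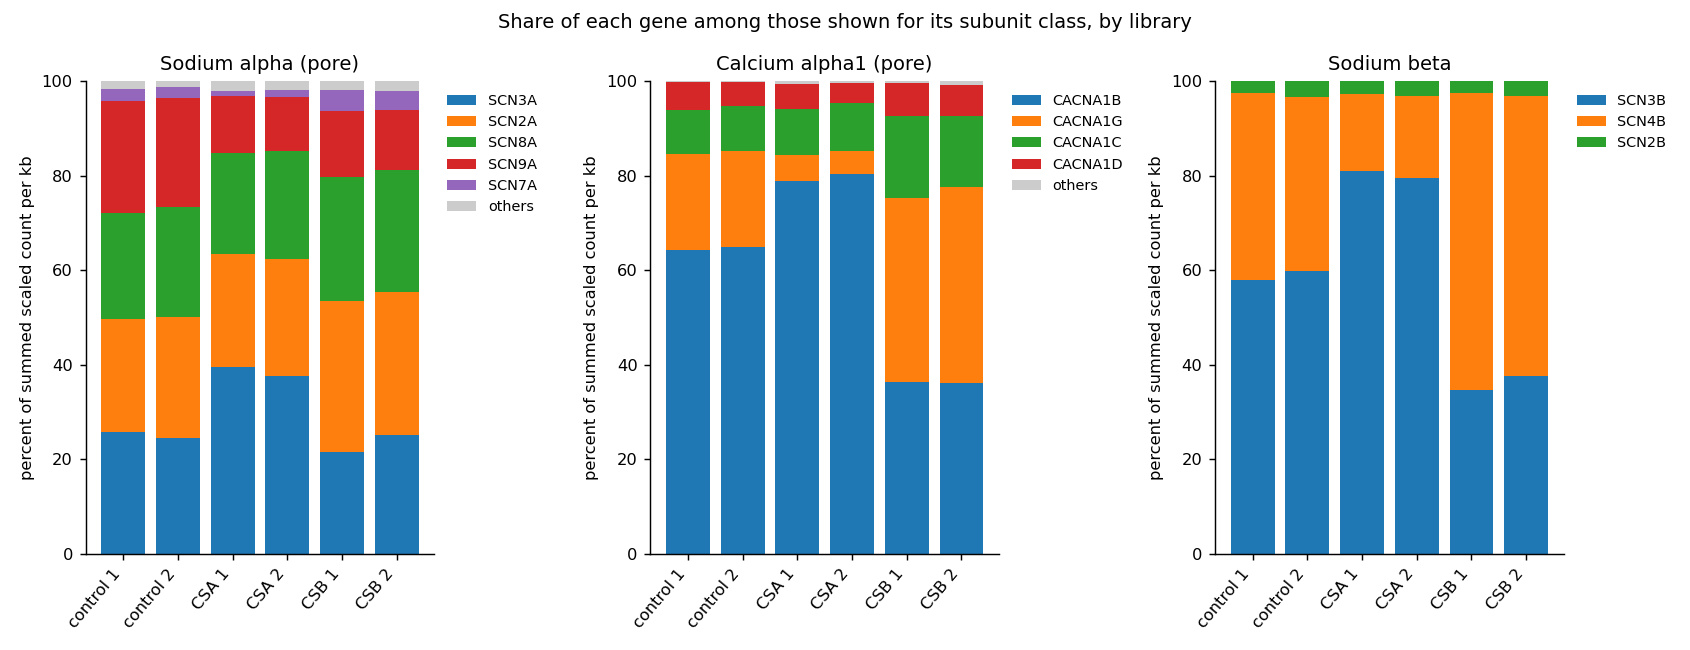
Share (percent) of each gene in the summed scaled count per kb of the genes reported for its class, in each of the 6 libraries, for sodium alpha, calcium alpha1 and sodium beta genes. Genes that never reach 2% are pooled as others. In the CSB knockdown CACNA1G exceeds CACNA1B and SCN4B exceeds SCN3B, which in control and the CSA knockdown they do not.

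Among the calcium alpha1 genes, the balance between the N-type and T-type genes shifted. CACNA1B, the N-type pore that serves transmitter release at many synapses, had scaled counts of 1185 and 1107 with the control hairpin, 1360.3 and 1449 with the CSA hairpin and 765 and 822 with the CSB hairpin. The CSA knockdown was highest and the CSB knockdown lowest, with no overlap. Its rise in the CSA knockdown was 0.29 ± 0.06 (adjusted p = 0.00681) and its fall in the CSB knockdown was by 0.53 ± 0.06 (adjusted p = 8.2e-05). CACNA1G, a T-type pore that opens at low voltage and supports rebound firing, had 366 and 339 with the control hairpin, 94.3 and 87.7 with the CSA hairpin and 802 and 919.9 with the CSB hairpin. Its groups were far apart, with the CSA knockdown lowest and the CSB knockdown highest. CACNA1G fell by 1.94 ± 0.10 (adjusted p = 8.5e-08) in the CSA knockdown, to 0.258 of the control mean, and rose by 1.28 ± 0.10 (adjusted p = 1.9e-06) in the CSB knockdown, a 2.44-fold ratio. The CSB knockdown was 9.46-fold above the CSA knockdown (log2 difference 3.22 ± 0.10, adjusted p = 3.6e-10). Per kb, CACNA1B held 64.2% and 64.9% of the class in control, 78.9% and 80.3% after CSA depletion and 36.4% and 36.2% after CSB depletion. CACNA1G held 20.2% and 20.2%, 5.57% and 4.95% and 38.8% and 41.3% in the same order, above CACNA1B in both CSB knockdown libraries. The other T-type genes, CACNA1H and CACNA1I, had at most 3 reads in a library.

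The expressed L-type genes rose in the CSB knockdown. CACNA1C, the L-type pore of heart, smooth muscle and neurons, had 334 and 313 with the control hairpin, 318 and 356 with the CSA hairpin and 707 and 655 with the CSB hairpin. Control and CSA knockdown overlapped, and both CSB knockdown libraries lay above them. It rose by 1.07 ± 0.08 (adjusted p = 2.8e-06) in the CSB knockdown, 2.10-fold, and differed by 0.05 (95% interval -0.13 to 0.24, adjusted p = 0.723) in the CSA knockdown. CACNA1D, the L-type pore of inner hair cells and pacemaking cells, had 117 and 94.5 with the control hairpin, 99.7 and 82.0 with the CSA hairpin and 157 and 162 with the CSB hairpin. Again only the CSB knockdown stood apart. Its rise was 0.59 ± 0.15 (adjusted p = 0.0134) there, and the CSA knockdown value was -0.22 ± 0.15 (adjusted p = 0.389). CACNA1E, the R-type pore, was sparse, with 4.97 and 0.965 with the control hairpin, 10.8 and 8.58 with the CSA hairpin and 8.81 and 15.7 with the CSB hairpin. Both knockdowns lay above control. The CSB knockdown passed at 1.90 ± 0.59 (adjusted p = 0.0344) and the CSA knockdown did not, at 1.64 ± 0.59 (adjusted p = 0.0769), on 6 reads in control, 19 in the CSA knockdown and 27 in the CSB knockdown. CACNA1F had at most 3.30 in any library and passed in no comparison.

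Genes on the opposite strand overlap both of these L-type genes, and the strand setting of the counting was not given in the sources used here, so reads of the partners cannot be told apart if strand was not used. CHDH, which overlaps CACNA1D, had mean scaled counts of 107 in control, 49.3 after CSA depletion and 210.3 after CSB depletion. DCP1B, which overlaps CACNA1C, had 272, 282 and 390.5. Among the smaller antisense partners, CACNA1G-AS1 had 5.32, 1.63 and 11.0, against a CACNA1G mean of 352 in control. Without 1 library the CSA knockdown call for CACNA1B ended whichever of the 6 was left out (adjusted p up to 0.166), and its CSB knockdown call ended without CSB 1 (0.0524). The CACNA1D rise ended without either control or CSB library or CSA 2 (up to 0.226), with DESeq2 and with quantile normalization (up to 0.101). Its difference between the knockdowns ended without CSA 2 or either CSB library (up to 0.119). The CACNA1E rise ended with any 1 library left out (up to 0.357), with quantile normalization and with no filter (up to 0.0798). CACNA1G and CACNA1C kept every call in all 20 alternatives.

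The alpha2delta genes with substantial expression, CACNA2D1 and CACNA2D2, encode the gabapentin-binding subunits. Both were higher in the CSA knockdown and lower in the CSB knockdown. CACNA2D1 had 1559 and 1634 with the control hairpin, 2189 and 1939.8 with the CSA hairpin and 841 and 825 with the CSB hairpin. CACNA2D2 had 2289.7 and 2284 with the control hairpin, 2755 and 3034 with the CSA hairpin and 1212 and 1162 with the CSB hairpin. For both genes the CSA knockdown was highest, control was in the middle and the CSB knockdown was lowest, with no overlap. CACNA2D1 rose by 0.37 ± 0.06 (adjusted p = 0.00154) and CACNA2D2 by 0.34 ± 0.06 (adjusted p = 0.00131) in the CSA knockdown. They fell by 0.94 ± 0.06 (adjusted p = 1.1e-06) and by 0.95 ± 0.06 (adjusted p = 4.3e-07), to 0.522 and 0.519 of the control mean, in the CSB knockdown. Per kb, CACNA2D2 held between 63.9% and 68.8% of the class in the 6 libraries, both bounds being CSA knockdown libraries, so the balance of the pair did not differ between groups beyond its spread. The summed scaled count of the class ranged over 3851 to 3922 in control, 4962 to 4984 in the CSA knockdown and 1991 to 2059 in the CSB knockdown. The promoters of the pair, printed above because of these near-equal changes, differ in GC content and CpG number. Whether promoter sequence has a part in the changes was not tested.

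CACNA2D3 was near the floor, with 1.99 and 0.965 with the control hairpin, 14.1 and 6.68 with the CSA hairpin and 1.10 and 0.825 with the CSB hairpin. Only the CSA knockdown stood above it, and its 2 libraries differed from each other as well. It rested on 3 reads in control and 20 in the CSA knockdown, a ratio of 6.91 with a 95% counting interval of 2.05 to 36.3 (counting error only), and passed in the CSA knockdown (adjusted p = 0.0233) and between the knockdowns (adjusted p = 0.00691). CACNA2D4 stayed at or below 4.40 and passed in no comparison. The CSA knockdown calls of CACNA2D1 and CACNA2D2 were lost without a control or a CSB library, whichever was left out (adjusted p up to 0.133 and 0.111). Those of CACNA2D3 ended with any 1 library left out in the CSA knockdown (up to 0.178) and without CSA 1 or either CSB library between the knockdowns (up to 0.108). The falls of CACNA2D1 and CACNA2D2 in the CSB knockdown held in all 20 alternatives.

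All 4 calcium beta genes, which encode the cytoplasmic chaperones of the alpha1 subunit, were called higher in the CSB knockdown, and 0 of 4 was called in the CSA knockdown. All have means above 50, and at a mean of at least 50 the share of all genes called was 45.0% and 35.7%. Over all tested genes it was 23.6% (14.8% up) in the CSB knockdown and 18.8% in the CSA knockdown. CACNB3, the class member with the highest per-kb level (231 per kb in control), had 1692 and 1613 with the control hairpin, 1721 and 1903 with the CSA hairpin and 2218 and 2406 with the CSB hairpin. The CSB knockdown lay above the other groups, and the CSA knockdown just above control. It rose by 0.48 ± 0.06 (adjusted p = 1.6e-04) in the CSB knockdown, with 0.13 ± 0.06 (adjusted p = 0.196) in the CSA knockdown. CACNB2, the beta gene best known from heart muscle, had 109 and 111 with the control hairpin, 101 and 115 with the CSA hairpin and 181 and 188 with the CSB hairpin. Control and CSA knockdown overlapped below the CSB knockdown. Its rise of 0.74 ± 0.13 (adjusted p = 1.0e-03) was 1.67-fold, while an antisense gene that overlaps it, RP11-499P20.2, had means of 56.7, 41.9 and 81.7 in control, CSA knockdown and CSB knockdown. CACNB4, a brain beta gene, had 224 and 228 with the control hairpin, 229.8 and 212 with the CSA hairpin and 288 and 313 with the CSB hairpin. Again control and CSA knockdown overlapped. It rose by 0.41 ± 0.09 (adjusted p = 0.00698) in the CSB knockdown. CACNB1, the skeletal muscle beta gene, which is also expressed in brain, had 539 and 571 with the control hairpin, 611 and 618 with the CSA hairpin and 658 and 645 with the CSB hairpin. The order was control, CSA knockdown, CSB knockdown, with no overlap but little distance between groups. The CSB knockdown value was 0.23 ± 0.07 (adjusted p = 0.0227).

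Each of these calls was lost in some alternative. CACNB2, CACNB3 and CACNB4 lost theirs without a control or a CSB library, whichever was left out (adjusted p up to 0.0694, 0.0854 and 0.104), and CACNB4 also with DESeq2 (0.126). CACNB1 lost its call without the same libraries (up to 0.132) and under edgeR with TMM or upper-quartile scaling, DESeq2, quantile normalization, median centring and removal of a length or span trend (up to 0.360). Each of the 4 kept a positive log2 change in all 20 alternatives. Against the CSA knockdown, CACNB2, CACNB3 and CACNB4 were higher in the CSB knockdown by 0.77 ± 0.13 (adjusted p = 4.9e-04), 0.35 ± 0.06 (adjusted p = 0.00108) and 0.44 ± 0.09 (adjusted p = 0.00319). Of these, CACNB3 lost the call without CSA 1 or either CSB library (up to 0.123), and CACNB4 without CSB 2 (0.0668) and with DESeq2 (0.0802).

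Per kb, CACNG4 led the gamma genes in control and the CSA knockdown. The summed scaled count of the 7 genes was 7922 to 8417 in control, 12110.4 to 12219 in the CSA knockdown and 6453 to 6459.9 in the CSB knockdown. CACNG4, a TARP, had 5005 and 4799.8 with the control hairpin, 8412 and 8268 with the CSA hairpin and 2424 and 2596 with the CSB hairpin. The 3 groups were well apart, with the CSA knockdown highest. CACNG4 rose by 0.77 ± 0.05 (adjusted p = 8.7e-07) in the CSA knockdown, 1.70-fold, and fell by 0.97 ± 0.05 (adjusted p = 1.5e-07) in the CSB knockdown, to 0.512 of the control mean. Per kb this was 1450.4 in control, 2468 in the CSA knockdown and 743 in the CSB knockdown, and its calls held in all 20 alternatives. An antisense gene inside it, RP11-349A8.3, had means of 29.3, 77.9 and 26.7.

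CACNG7 and CACNG8, also TARPs, changed less. CACNG7 had 2507 and 2252 with the control hairpin, 2751 and 2860.0 with the CSA hairpin and 2909.9 and 2777 with the CSB hairpin. Both knockdowns lay above control and overlapped each other. Its rises were 0.24 ± 0.06 (adjusted p = 0.0144) in the CSA knockdown and 0.26 ± 0.06 (adjusted p = 0.00743) in the CSB knockdown. With CACNG4 lower, CACNG7 was the leading gamma gene per kb in the CSB knockdown, at 53.7% and 51.1% of the class against 35.3% and 33.7% in control. CACNG8 had 684 and 655 with the control hairpin, 716 and 857 with the CSA hairpin and 906 and 889 with the CSB hairpin. Control was lowest and the CSB knockdown highest, without overlap. It rose by 0.42 ± 0.08 (adjusted p = 0.00220) in the CSB knockdown and missed the threshold in the CSA knockdown, at 0.23 ± 0.08 (adjusted p = 0.0747). CACNG2, known as stargazin, ranged from 158 to 213 and passed in no comparison, nor did CACNG1, the gamma subunit of the skeletal muscle channel, CACNG5 or CACNG6, which stayed at or below 30.5. Leaving out any 1 library ended both CACNG7 calls (adjusted p up to 0.229 in the CSA and 0.202 in the CSB knockdown), and DESeq2 or removal of a length trend ended the one in the CSB knockdown (up to 0.0854). The CACNG8 call was lost without a control or a CSB library, whichever was left out (up to 0.168).

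Several channel genes are neighbours, and on chromosome 2 called changes of opposite sign after CSA depletion lay on either side of a wide gap. On chromosome 2 (hg38), SCN3A (chr2:165087522-165204067, minus strand) and SCN2A (chr2:165239402-165392310, plus strand) are 35.3 kb apart. After a much wider gap comes SCN1A (chr2:165989160-166128047, minus strand). SCN9A (chr2:166195185-166375993, minus strand) and SCN7A follow SCN1A, with gaps of 67.1 kb from SCN1A to SCN9A and 27.6 kb from SCN9A to SCN7A. After CSA depletion the log2 changes along this stretch were 0.95 for SCN3A, 0.32 for SCN2A, -1.03 for SCN1A, -0.64 for SCN9A and -0.56 for SCN7A, of which the SCN3A and SCN2A rises and the SCN9A fall passed. The CSB knockdown values were -0.29, 0.16, 0.64, -0.97 and 0.64, of which the falls of SCN3A and SCN9A passed. On chromosome 11, SCN4B and SCN2B are 9.06 kb apart on the minus strand, and SCN2B, unlike SCN4B, passed in neither knockdown, with 0.08 (95% interval -0.53 to 0.70) in the CSA and 0.07 (-0.55 to 0.68) in the CSB knockdown. On chromosome 17, CACNG5, CACNG4 and CACNG1 lie in a row. CACNG5 had log2 changes of -0.80 and 0.17 and CACNG1 of -0.58 and -0.87 in the CSA and CSB knockdown, none of which passed, beside the called changes of CACNG4.

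**Figure D4:**
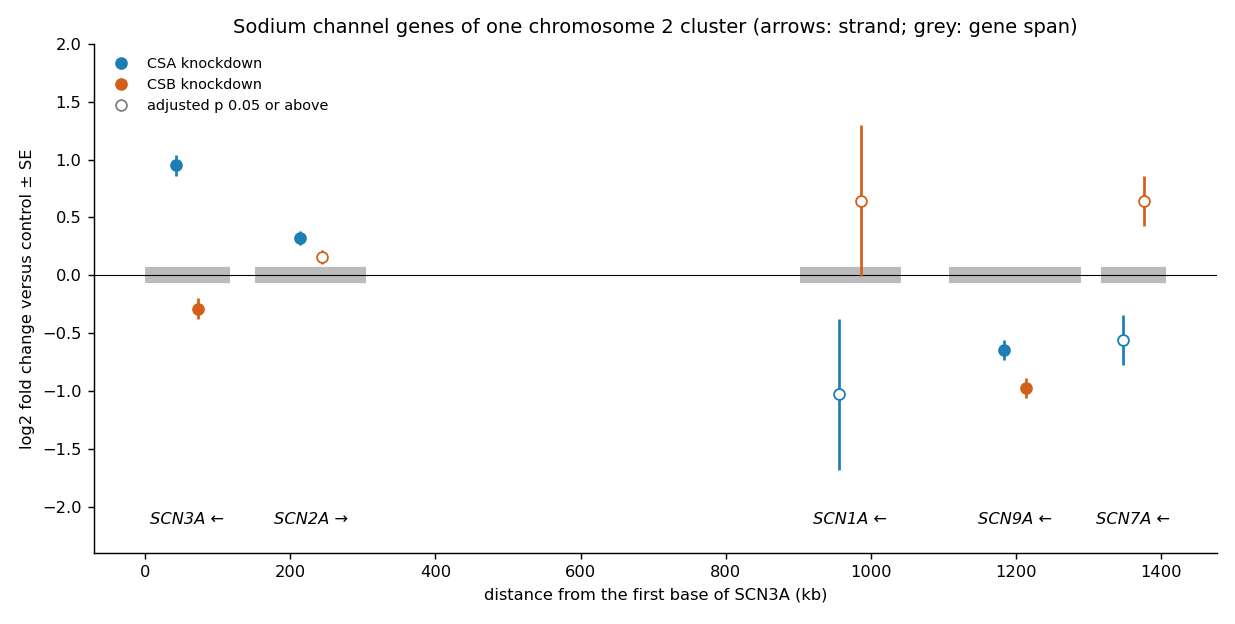
Log2 fold change against control (± SE) of SCN3A, SCN2A, SCN1A, SCN9A and SCN7A in each knockdown, placed at the middle of each gene along chromosome 2, with distance in kb from the first base of SCN3A. Filled points passed an adjusted p of 0.05. In the CSA knockdown SCN3A lies near 1 and SCN9A below 0, and in the CSB knockdown SCN9A lies near -1.

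Genes whose products bind sodium channels showed changes of both signs. Of 14 such genes 12 were tested, and 2 rose and 3 fell in the CSA knockdown, while 3 rose and 5 fell in the CSB knockdown. The called shares were 41.7% and 66.7%, against 18.8% and 23.6% of all tested genes and 35.7% and 45.0% of genes with a mean of at least 50. The rises with CSA depleted were SPTBN4 (0.93 ± 0.06, adjusted p = 1.0e-06), the beta-IV spectrin of the axon initial segment, and ANK2 (0.31 ± 0.07, adjusted p = 0.00674), an ankyrin. The falls were NEDD4 (by 0.70, adjusted p = 0.00107) and NEDD4L (by 0.56, adjusted p = 7.4e-05), ubiquitin ligases that remove sodium channels from the membrane, and the adhesion molecule NRCAM (by 0.36, adjusted p = 4.7e-04). Rises with CSB depleted included ANK3 (0.40, adjusted p = 0.0219), the ankyrin that anchors sodium channels at the initial segment, and neurofascin, NFASC (0.20, adjusted p = 0.0416). The 3 falls of greatest size were NRCAM (by 0.82, adjusted p = 7.5e-07), FGF14 (by 0.71, adjusted p = 6.6e-05), an intracellular modulator of sodium channel inactivation, and the contactin gene CNTN1 (by 0.58, adjusted p = 4.5e-05). The CSA knockdown calls ended for ANK2 with any 1 library left out (adjusted p up to 0.182), for NEDD4 when any library but CSA 1 was left out (up to 0.135) and for NRCAM without either control or CSB library (up to 0.0936). The CSB knockdown calls ended for ANK3 without either control or CSB library (up to 0.183) and under 3 other settings (up to 0.232), for CNTN1 without control 1 or CSB 1 (0.0524) and for NFASC with any 1 library left out (up to 0.280) and under 8 other settings (up to 0.401).

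Of 23 tested genes for calcium channel partners, active zone genes among them, 7 rose and 1 fell in the CSA knockdown, and 5 rose and 9 fell in the CSB knockdown. The share called with CSA depleted, 34.8%, was near the 35.7% of all genes with a mean of at least 50 (18.8% of all tested genes). With CSB depleted it was 60.9%, against 45.0% and 23.6%. RIMS1, an active zone scaffold that tethers calcium channels near vesicles, had scaled counts of 105 and 141 with the control hairpin, 285 and 309 with the CSA hairpin and 87.0 and 66.0 with the CSB hairpin. The CSA knockdown libraries were the highest of the 6. It rose by 1.28 ± 0.17 (adjusted p = 1.7e-04) in the CSA knockdown and fell by 0.68 ± 0.17 (adjusted p = 0.0101) in the CSB knockdown. Next by size in the CSA knockdown came REM2 (0.89, adjusted p = 0.00561), a small GTPase that restrains calcium channels, and ERC2 (0.63, adjusted p = 0.0146), another active zone scaffold, and the only fall was APBA1 (by 0.37, adjusted p = 0.00190), an adaptor. With CSB depleted the rises of greatest size were RRAD (0.99, adjusted p = 0.00892), related to REM2, CBARP (0.67, adjusted p = 5.4e-05), which binds beta subunits, and RIMBP2 (0.58, adjusted p = 3.4e-06), which links RIM proteins to calcium channels. The falls of greatest size were RIMS3 (by 1.14, adjusted p = 3.5e-08), RIMS1 and the GTPase GEM (by 0.61, adjusted p = 1.7e-05). In the CSA knockdown, the RIMS1 call ended without control 1, CSA 2 or CSB 2 (adjusted p up to 0.0969), that of APBA1 without either control library (0.0677), and those of REM2 and ERC2 with any 1 library left out (up to 0.0978 and 0.190), ERC2 also with DESeq2 (0.0552). After CSB depletion, that of RIMS1 ended with any 1 library left out (up to 0.283), that of RRAD when any library but CSA 1 was left out (up to 0.206) and that of CBARP without either CSB library (up to 0.0954).

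The sodium leak channel NALCN, which sets resting excitability and is built like a sodium channel alpha subunit, was looked at with its partner proteins. Of 5 genes tested, 1 rose in the CSA knockdown (20%, near the 18.8% of all tested genes) and 4 fell in the CSB knockdown (80.0%, against 23.6%). At a mean of at least 50, which all of them but NALCN had, the shares of all genes called were 35.7% and 45.0%. UNC80, a large scaffold of the complex, rose by 0.76 ± 0.06 (adjusted p = 3.6e-06) in the CSA knockdown and fell by 0.48 ± 0.06 (adjusted p = 1.1e-04) in the CSB knockdown. Its scaled counts were 958 and 972 with the control hairpin, 1642 and 1622 with the CSA hairpin and 665 and 723 with the CSB hairpin, with no overlap. UNC79, the scaffold's partner, fell by 0.57 ± 0.06 (adjusted p = 2.7e-05) and FAM155A, the membrane protein of the complex, by 0.66 ± 0.06 (adjusted p = 1.1e-05) in the CSB knockdown. NALCN itself passed in neither knockdown. It had scaled counts of 5.97 and 2.89 with the control hairpin, 5.42 and 1.91 with the CSA hairpin and 7.71 and 7.43 with the CSB hairpin. The 3 called genes named here kept their calls in all 20 alternatives.

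REST is a repressor known to silence many neuronal genes outside the nervous system, sodium channel genes among them, so its level was set beside theirs. REST had scaled counts of 1231 and 1159 with the control hairpin, 759.8 and 705 with the CSA hairpin and 1356 and 1502 with the CSB hairpin. The CSA knockdown was lowest and the CSB knockdown highest, without overlap. REST fell by 0.71 ± 0.07 (adjusted p = 1.7e-05) in the CSA knockdown and rose by 0.26 ± 0.07 (adjusted p = 0.0169) in the CSB knockdown. Its fall held in all 20 alternatives, while the rise ended with any 1 library left out (adjusted p up to 0.247), with DESeq2 and with removal of a length or span trend (up to 0.151). Of the 10 tested genes of the REST complex, 0 rose and 2 fell in the CSA knockdown, and 4 rose and 2 fell in the CSB knockdown. The share of 20% in the CSA knockdown was near that of all tested genes (18.8%) and below that of genes with a mean of at least 50 (35.7%), while in the CSB knockdown it was 60%, against 23.6% and 45.0%. The second fall in the CSA knockdown was RCOR1 (by 0.33, adjusted p = 0.00206), a corepressor, which ended when any library but CSA 1 was left out (up to 0.115). After CSB depletion the corepressor genes RCOR2 (0.29, adjusted p = 0.00308) and RCOR3 (0.18, adjusted p = 0.0349) rose, and HDAC1 (by 0.26, adjusted p = 0.00393) and SIN3A (by 0.18, adjusted p = 0.0458), of the deacetylase complex, fell. These 4 calls ended without control 2 or either CSB library, those of RCOR3, HDAC1 and SIN3A also without control 1, and those of RCOR2 and SIN3A also without CSA 2 (adjusted p up to 0.127, 0.169, 0.110 and 0.328), and those of RCOR2 and RCOR3 also under other scalings or trend removals (up to 0.122 and 0.451). SIN3A also lost its call with a pseudocount of 0.5 and with no filter (up to 0.0659). Whether REST has a part in the channel gene changes was not tested.

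Other families of excitability genes are set beside these shares as a description. Of 76 tested potassium channel genes, 27.6% were called in the CSA knockdown, 32.9% in the CSB knockdown and 53.9% between the knockdowns. For 55 tested subunits of ligand-gated neurotransmitter receptors these shares were 30.9%, 38.2% and 40.0%. At a mean of 50 or more, the potassium channel shares were 42.9%, 62.9% and 80.0% of 35 genes and the ligand-gated shares 58.3%, 79.2% and 70.8% of 24 genes, against 61.9%, 81.0% and 76.2% of the 21 sodium and calcium channel genes. In the CSA knockdown 9 potassium channel genes rose and 12 fell, and 11 ligand-gated subunits rose and 6 fell, beside 12 and 3 of the sodium and calcium channel genes. The differences between the families were not tested.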

How the data were processed

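RNA of 6 SH-SY5Y libraries (3 groups of 2) was sequenced from 1 µg of total RNA with the TruSeq kit, per the labels' protocols. HISAT2 2.0.4, FastQC and hg38 were used per the submitters' processing notes; none of counter, strand setting and annotation was given in the sources used here. The deposited value is headed FPKM per the file headers, but 100% of values in each library were whole multiples of its smallest value (tolerance 0.01 of that step), with no length term. The deposited unit is therefore a signal, reads divided by 1 size factor per library, called the scaled count. Genes absent from a library were taken as 0.

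Genes with a group mean of at least 1 (28388) were tested with limma 3.58.1 (R 4.3.3), mean-variance trend, on log2(scaled count + 1), 3 groups in 1 fit, 3 residual degrees of freedom, Benjamini-Hochberg adjustment, threshold 0.05. Fold changes on this scale understate those of low genes. The fit was tested on simulated data. Reads, recovered by dividing by the smallest value, gave edgeR 4.0.16 and DESeq2 1.42.0 alternatives. The plan foresaw edgeR for raw counts and limma for scaled values, and the latter applied. Per-library values are given for genes called in any comparison and for the leading gene per kb of each class; from each gene list, up to 3 rises and 3 falls of greatest size, and REST. Leave-one-out fits that leave 1 library in a group assume that it varies like the others. Members and lists were chosen with earlier results of these data known. Some genes that enter the counts are not reported here individually, and shares within a class leave them out.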

Additional observations from a re-analysis of the deposited data

How the results depend on the processing

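Over the 3 comparisons, the 35 tested channel genes gave 52 calls. Of these, 26 held in all 20 alternatives and 26 were lost in at least 1, of which 8 were lost outside the leave-one-out fits; 10 of 53 uncalled results gained a call, and 0 reversed. With 1 library left out, called channel genes numbered 6 to 12 in the CSA knockdown (15 with all libraries), 8 to 16 in the CSB knockdown (18) and 13 to 18 between the knockdowns (19). All genes called numbered 1126 to 3306 (5334), 1773 to 5961 (6706) and 4384 to 6223 (8340). Called channel genes, up and down, were 13 and 3, 11 and 7, and 10 and 13 with edgeR and TMM, and 10 and 3, 6 and 7, and 7 and 11 with DESeq2.

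The split over all genes depends on the scaling. In the CSB knockdown 4191 genes were higher and 2515 lower, against 3644 and 3624 with edgeR and TMM, 2195 and 2869 with DESeq2, 2899 and 3003 with quantile normalization, 2860 and 3671 with a length trend removed and 2874 and 3707 with a span trend removed. Between the knockdowns these were 5128 and 3212, against 4368 and 4563, 3132 and 3360, 3862 and 4041, 3829 and 4708, and 3887 and 4609. Removing the length trend moved the median log2 change of all genes from 0.097 to -0.008 in the CSB knockdown and from 0.090 to -0.019 between the knockdowns.

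Replicate numbers did not pair the libraries: deviations of same-numbered libraries had correlations of -0.040, -0.032 and -0.032 over 13397 genes. With the replicate number as a block, 12 channel genes rose and 3 fell in the CSA knockdown, 11 and 7 in the CSB knockdown and 9 and 11 between the knockdowns, and 5259, 6575 and 8258 of all genes were called. Depth limits the 7 genes with at most 3 reads in any library, and CACNA1E, CACNA2D3 and SCN11A rest on few reads.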

Other observations

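Of 15 tested genes for calcium-dependent kinases, the phosphatase calcineurin and its regulators, 2 rose and 3 fell in the CSA knockdown, and 1 rose and 4 fell in the CSB knockdown. The share called, 33.3% in each, was below that of all genes with a mean of at least 50 (35.7% and 45.0%) and above that of all tested genes (18.8% and 23.6%), and nothing is read from it about the group. CAMK2B, a subunit of the calmodulin-dependent kinase of synapses, had scaled counts of 301 and 277 with the control hairpin, 458 and 482 with the CSA hairpin and 171 and 185 with the CSB hairpin. The CSA knockdown was highest and the CSB knockdown lowest, without overlap. It rose by 0.70 ± 0.09 (adjusted p = 1.5e-04) and fell by 0.70 ± 0.09 (adjusted p = 1.3e-04). CAMK4, a nuclear kinase that acts on CREB, had 315 and 337 with the control hairpin, 633 and 595 with the CSA hairpin and 498 and 460.4 with the CSB hairpin. Both knockdowns lay above control, by 0.91 (adjusted p = 5.8e-06) in the CSA and 0.55 (adjusted p = 2.4e-04) in the CSB knockdown. CAMK2D, another subunit of the kinase, fell in both, by 0.68 (adjusted p = 2.7e-06) and 0.24 (adjusted p = 0.00589). RCAN1, a calcineurin inhibitor that calcineurin signalling itself induces, had 419 and 369 with the control hairpin, 199 and 177 with the CSA hairpin and 379.8 and 412 with the CSB hairpin. Only the CSA knockdown stood apart. RCAN1 fell by 1.06 ± 0.10 (adjusted p = 1.1e-05) there and differed by 0.01 (95% interval -0.21 to 0.22) in the CSB knockdown. The remaining named changes were falls of PPP3R1, the regulatory subunit of calcineurin, in the CSA knockdown (by 0.22, adjusted p = 0.0253) and of the upstream kinase CAMKK1 in the CSB knockdown (by 0.69, adjusted p = 1.3e-04). The PPP3R1 call ended when any library but CSA 1 was left out (adjusted p up to 0.139), with DESeq2 and with only the 2 groups compared (up to 0.112). In the CSB knockdown that of CAMK2D ended without either control or CSB library (up to 0.120) and that of CAMK4 without control 1 or CSB 1 (0.0524). The other calls named among these enzymes held in all 20 alternatives.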
